A study of Mus musculus with 305 samples.

Results

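The clustered protocadherin genes were all rows of the count table whose Ensembl identifier maps, in GENCODE M21, to a protein-coding mouse gene with a symbol beginning in Pcdha, Pcdhb or Pcdhg. The rule found 57 genes among the 52636 rows. Of these, 14 belong to the alpha cluster, 22 to beta and 21 to gamma. The clusters lie one after the other on the plus strand of chromosome 18 (GRCm38): alpha from 36930184 to 37187661, beta from 37264938 to 37524479 and gamma from 37661793 to 37841873. No measured value entered the choice. Pcdhgb8 is annotated as a polymorphic pseudogene and was not a member. A pair of alpha rows carries the symbol Pcdha11, so each is given with its identifier. ENSMUSG00000007440 starts at 37005203, nearest to the start of Pcdha10 in RefSeq (37005320, GRCm38), so under RefSeq's names its values would be those of Pcdha10, and ENSMUSG00000102206 starts nearest to RefSeq's Pcdha11.

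Clustered protocadherins are adhesion proteins of the neuronal surface that bind their own kind across cell contacts. Each alternate gene has its own promoter and a large first exon for the extracellular domain, and a single neuron switches on its own small assortment of them, which gives it a surface identity that its own branches can recognise and avoid. In the alpha and gamma clusters the first exon is spliced to constant exons shared by the whole cluster, whereas beta genes stand alone without constant exons. The C-type genes at the end of the alpha and gamma clusters (Pcdhac1, Pcdhac2, Pcdhgc3, Pcdhgc4 and Pcdhgc5) have less of this random choice and are switched on by cell type. Promoter choice involves DNA methylation and DNA loops held by CTCF and cohesin.

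The series asked how heroin intake and relapse change transcription across the reward circuitry of 51 male wild-type mice. Every mouse, controls included, had 15 d of intravenous self-administration. The S24 mice (8) took saline and the H24 mice (11) took heroin, and both were studied after 24 h of withdrawal. The other groups, of 8 mice each, spent 30 d in withdrawal before a challenge and a drug-seeking test of 2 h: SS took saline and received saline, SH took saline and received heroin, HS took heroin and received saline, and HH took heroin and received heroin. Strain and age are not given in the sources used here. Ribosome-depleted total RNA was sequenced from prefrontal cortex (PFC), nucleus accumbens (NAc), dorsal striatum (dStri), basolateral amygdala (BLA), ventral hippocampus (vHPC) and ventral tegmental area (VTA).

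The mice gave 1 library per region, except that BLA of S24 mouse 37 was not analysed here, and the libraries used held between 19.3 and 61.4 M counts (median 31.5 M). The VTA library of HH mouse 7, at 0.890 M, was left out. In BLA the S24 group thus has 7 mice. A further 16 libraries stood apart from their region, among them VTA S24 mouse 37 and 5 of vHPC, and vHPC SS mouse 28 and SH mouse 27 lay nearest to the BLA profile. Markers matched the regions: in SS mice the summed dopamine neuron markers had a median of 2832 CPM (counts per M of the library total) in VTA against 16.6 to 37.0 elsewhere, and the striatal projection neuron markers 6367 in dStri and 3944 in NAc against 94.6 to 433 elsewhere. Excitatory neuron markers had a median of 2736 to 2803 in PFC, BLA and vHPC, 712 and 726 in dStri and NAc, and 87.6 in VTA. The markers fixed here hold none that is particular to BLA.

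How much of each gene could be counted differed between the clusters. The share of a gene's exon bases that no other gene of its strand covers, here called its own bases, had a median of 46.5% in alpha (8.56% to 61.1%), 100% in beta (90.3% to 100%) and 55.4% in gamma (33.2% to 68.5%). Reads from the constant exons fit several alpha or several gamma genes alike, so the alpha and gamma values come mainly from first exons. Of the 57 members, 53 had enough counts to be tested in every one of 14 fits. Pcdhb1, the first gene of the beta cluster, passed in 11 fits and had a median of 13 counts per library. Pcdha11 (ENSMUSG00000102206) passed in 7 fits with a median of 5 counts and had 0 counts in 33 libraries. Pcdha4, with only 8.56% own bases, passed in none, with a median of 2 counts and 0 counts in 87 libraries. Pcdhga10 had 0 counts in every library used. An antisense gene model covers all of its own bases, and of 25 protein-coding genes in that position 23 had a median count of 0, against 23.6% of 21094 genes with over 500 own bases on either strand. Pcdhga10 and Pcdha4 are thus listed without a level, and the values of Pcdha11 (ENSMUSG00000102206), Pcdhb12, Pcdhga11 and Pcdhgc3, where antisense models cover part of the gene, are uncertain.

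Per kilobase of own bases, the C-type genes Pcdhgc5 and Pcdhac2, each the last of its cluster, had the highest values. In SS mice, averaged over the 6 regions, Pcdhgc5 stood at 21.5 CPM per kb and Pcdhac2 at 12.7. The alternate genes had a median of 4.10 CPM per kb in gamma (1.70 to 8.72, 17 genes tested), 1.66 in beta (0.205 to 4.79, 22 genes) and 1.25 in alpha (0.0580 to 2.08, 11 genes). After Pcdhgc5, the highest gamma gene was Pcdhgb6 at 8.72 CPM per kb, and the lowest were Pcdhga1 at 1.70 and Pcdhgb5 at 2.07. In beta, Pcdhb9 (4.79) and Pcdhb17 (4.18) led, and Pcdhb1 (0.205) and Pcdhb12 (0.904) came last. In alpha, Pcdha9 (2.08) followed Pcdhac2, while Pcdha1 (0.368) and Pcdha11 (ENSMUSG00000102206, 0.0580) were lowest. The other C-type genes, Pcdhgc3 at 7.98 CPM per kb, Pcdhgc4 at 4.81 and Pcdhac1 at 1.35, lay within the range of the alternate genes of their own cluster.

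Counted over bases free on both strands, 4 of these levels moved by over 1.5 times: Pcdha11 (ENSMUSG00000102206) to 0.211, Pcdhb12 to 2.48, Pcdhga11 from 3.61 to 7.58 and Pcdhgc3 to 14.8 CPM per kb. With that length Pcdhb12 was no longer among the lowest beta genes, and Pcdhgc3 passed Pcdhac2 (12.7) to stand second to Pcdhgc5. Divided by all exon bases, constant exons included, 31 of 55 levels moved by over 1.5 times, and the medians of the alternate genes became 0.501 in alpha, 1.66 in beta and 2.27 in gamma. The order of the 3 clusters was the same under each length, but the distance of alpha and gamma from beta depends on it, and with all exon bases Pcdhb9 (4.79) lay above Pcdhgb6 (4.78). Pcdhgc5 (13.0) and Pcdhac2 (6.52) were again the highest with that length. Level and order along the chromosome had a Spearman correlation of 0.58 over the 22 beta genes, 0.19 over the 11 alternate alpha genes and -0.16 over the 17 alternate gamma genes. These are descriptions across genes of the same libraries.

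**Figure D1:**
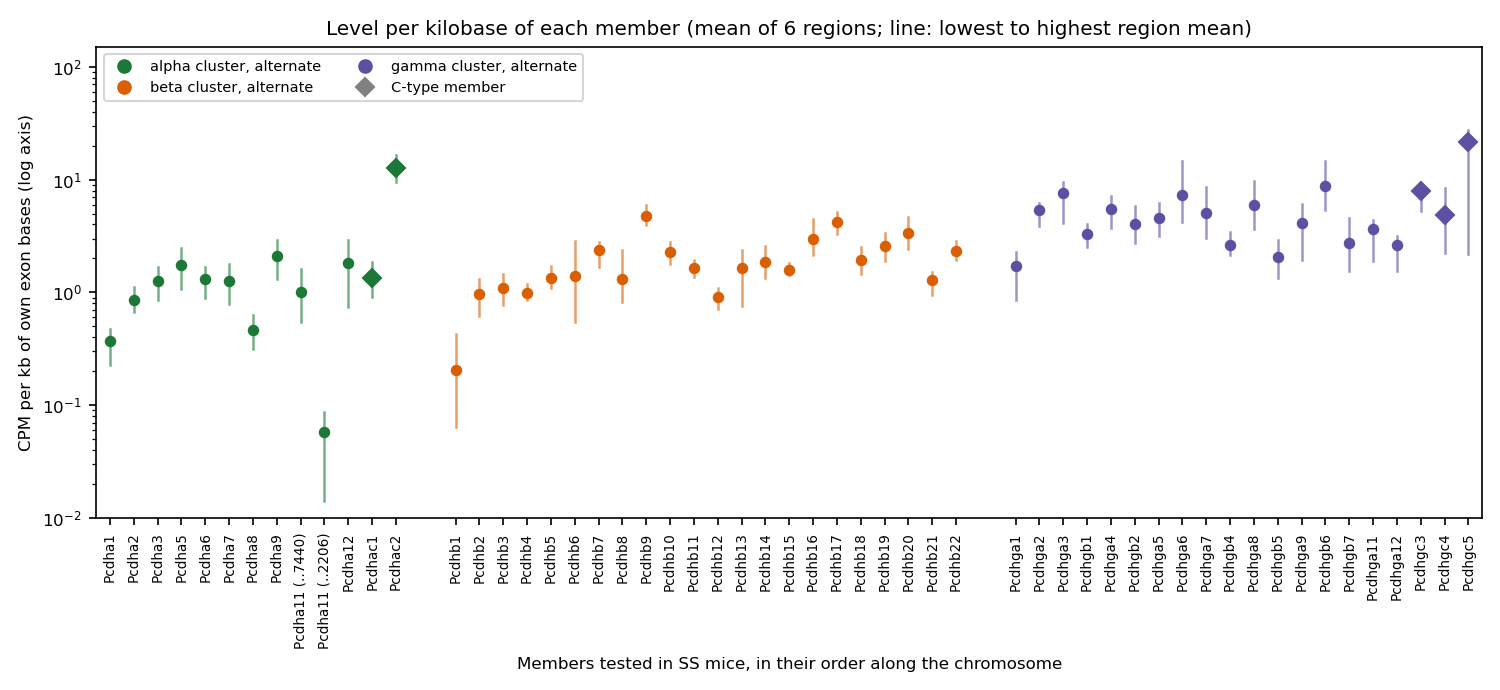
The vertical log axis gives CPM per kb of own exon bases in SS mice, and the horizontal axis lists the tested members in chromosome order, coloured by cluster, with diamonds for C-type genes. Points are means of the 6 regions and lines run from the lowest to the highest region mean; Pcdhgc5 and Pcdhac2 stand above all alternate genes, and the Pcdhgc5 line reaches down to 2.20 in VTA.

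The clusters had different regional profiles. Summed over its members, the alpha cluster in SS mice was high in BLA (91.3 ± 13.5 CPM, SD, n = 8), PFC (89.9 ± 8.15) and vHPC (81.1 ± 6.85), and low in VTA (57.3 ± 4.97), dStri (56.9 ± 7.47) and NAc (52.96 ± 4.43). Single libraries ran from 67.7 to 110.4 in the first 3 regions and from 46.1 to 70.7 in the last 3, which overlap only at the edge. In bulk tissue, fewer cells of a type and less RNA per cell cannot be told apart.

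The beta cluster ran the other way between striatum and cortex. Its sum was highest in NAc (229.2 ± 19.5 CPM) and dStri (218.6 ± 25.9), followed by BLA (183 ± 15.6), vHPC (168 ± 13.8), VTA (165 ± 9.47) and PFC (159 ± 8.66). Every NAc library lay above every library of PFC (highest 175), VTA (181) and vHPC (185). The gamma cluster was also highest in dStri (437 ± 51.95) and NAc (412 ± 34.2), then BLA (385 ± 30.6), vHPC (379.6 ± 35.5) and PFC (321 ± 16.2), and it was far lower in VTA (199 ± 25.2). The highest VTA library (241.1) lay below every library of the other regions.

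The balance of the clusters shifted accordingly. Gamma made up 61.3% ± 1.60 of all clustered protocadherin counts in dStri and 47.1% ± 2.79 in VTA. Alpha made up 15.8% ± 0.919 in PFC and 7.63% ± 0.493 in NAc, with no overlap of libraries (14.8% to 17.4% against 6.80% to 8.58%). Beta made up 39.2% ± 1.57 in VTA and 26.7% ± 1.44 in vHPC. These shares leave out the constant exons and do not weigh genes by length. Those of VTA include its low Pcdhgc5 level. In the S24 mice, which share no library with SS, the orders were close: alpha was again above 77 CPM on average in BLA, PFC and vHPC (95.3, 91.7 and 77.9) and at 56.4 to 60.3 in the other regions, and gamma again lowest in VTA (189 ± 25.4).

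**Figure D2:**
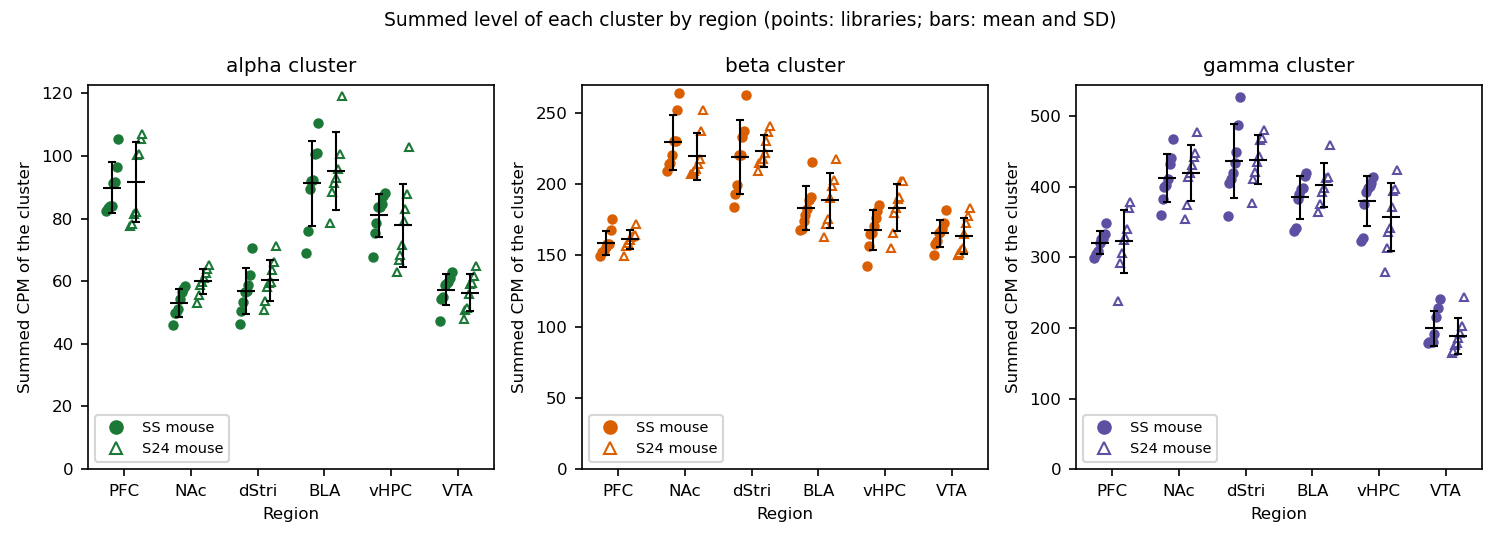
Each panel gives the summed CPM of 1 cluster (vertical axis, from 0) in the 6 regions, with filled circles for SS and open triangles for S24 libraries and black bars for the mean and SD. Alpha is high in PFC, BLA and vHPC, beta and gamma in NAc and dStri, and gamma is lowest in VTA, where the SS libraries reach at most 241.1.

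Member by member, each region was compared with the mean of the other 5 in SS mice, with edgeR's quasi-likelihood test and Benjamini-Hochberg adjustment over 21088 genes. The same contrasts were then fitted in S24 mice, and a member was counted as repeated when it passed in the same direction in both. Of 55 members tested, 48 repeated in at least 1 region: 11 of 13 alpha, 17 of 22 beta and 20 of 20 gamma. In VTA alone, 26.8% of all genes repeated as higher and 26.4% as lower. The share of all genes that repeated in at least 1 region was not computed, so these counts are not a result about the members. No member passed in opposite directions. The 7 that repeated nowhere were Pcdha1, Pcdha8, Pcdhb4, Pcdhb5, Pcdhb12, Pcdhb15 and Pcdhb21. A gene that is very low in 1 region is raised in the other 5 contrasts by the arithmetic of this comparison.

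In VTA, 34 members were lower and 9 higher, where 30.4% of all genes tested were lower and 29.7% higher. In both groups of mice 32 members were lower (all genes: 26.4%) and 6 higher (26.8%). Gamma accounted for most of this: 18 of its 20 tested members were lower, including 17 of 17 alternate genes, and all 18 repeated. The gamma median was -0.72 on the log2 scale, against -0.39 for alpha, -0.21 for beta and -0.04 for all genes. Pcdha12 was at 1.12, 1.91 and 2.25 CPM (lowest, median and highest library) in VTA and at 5.18, 6.70 and 11.5 in PFC. It was lower in VTA by -1.44 ± 0.178 (log2 ± SE, adjusted p = 8.16e-10). The VTA libraries carried far more oligodendrocyte RNA, with summed markers at a median of 15050 CPM against 1953 to 4257 elsewhere, and 8 of 8 of these markers were higher. The part of cell mixture in the lower gamma values was not tested. Members higher in VTA included the C-type genes Pcdhgc4 and Pcdhac1. Of 50 alternate genes tested, 7 were higher and 4 repeated (all genes: 29.7% and 26.8%). Among these 4 was Pcdhb2 with 0.56 ± 0.154 (adjusted p = 0.00152, and 0.37 in S24).

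In dStri, 25 members were higher and 11 lower (all genes 24.2% and 24.3%), and 24 and 7 repeated (20.3% and 21.1%). NAc had 27 higher and 10 lower (20.6% and 20.9%), of which 24 and 4 repeated (16.1% and 15.9%). The higher genes were beta and gamma: 14 gamma and 13 beta genes in NAc, and 14 gamma and 10 beta in dStri, against 0 and 1 of alpha. In alpha 9 of 13 were lower in NAc and 6 in dStri, of which 4 each repeated.

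A few beta and gamma genes stood out in the striatum. Pcdhb6 ran at 7.93, 9.89 and 18.4 CPM (lowest, median, highest) in dStri, 6.05, 8.19 and 11.1 in NAc and 1.40, 1.91 and 3.07 in PFC, and every striatal library lay above every library of the other 4 regions. It was higher in dStri by 1.58 ± 0.117 (log2 ± SE, adjusted p = 1.21e-16) and in NAc by 1.11 ± 0.122, and lower in PFC by -1.27 ± 0.148, vHPC by -0.79 ± 0.141 and BLA by -0.41 ± 0.137, the last not repeated in S24. Pcdhga6 had 30.1, 37.2 and 51.7 CPM in dStri. Its highest library in any other SS region, in NAc, held 26.7, so dStri did not overlap with the rest. The difference was 1.35 ± 0.0692 (adjusted p = 1.03e-22; 1.27 in S24). Here the dorsal and ventral striatum differed: NAc had a median of 21.8, and vHPC, with a median of 12.3, was lower by -0.57 ± 0.0801. Pcdhb8 was likewise higher in dStri by 1.14 ± 0.132, at a mean of 8.24 CPM against 5.18 in NAc and 2.87 to 4.32 in the other regions, and lower in vHPC by -0.56 ± 0.151.

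In NAc, Pcdhb1 was higher by 1.53 ± 0.349 (2.67 in S24), but it averaged only 1.11 ± 0.463 CPM (SD, n = 8) there and 0.164 to 0.656 in the other regions. Pcdhb16 was higher by 0.75 ± 0.0674 (adjusted p = 2.05e-13; 0.55 in S24), with NAc libraries from 18.8 to 28.5 CPM and VTA libraries from 10.8 to 15.5. Of the alpha genes lower in NAc, Pcdha9 repeated (-0.74 ± 0.144, and -0.34 in S24), at 3.24 ± 0.789 CPM against 7.16 ± 1.43 in PFC. Pcdha1 (-0.82 ± 0.289) and Pcdha7 (-0.73 ± 0.164) did not repeat. In dStri, Pcdha3 was lower by -0.62 ± 0.169 and repeated, and Pcdhb2 by -0.73 ± 0.173 and did not.

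In PFC the balance was reversed, with 11 members higher and 23 lower (all genes 22.2% and 22.1%), of which 8 and 19 repeated (16.1% and 15.1%). Lower were 13 gamma and 10 beta genes and 0 alpha genes, and higher were 7 of 13 alpha genes. The named alpha genes were Pcdha12 (0.98 ± 0.146, adjusted p = 1.84e-07) and Pcdha11 (ENSMUSG00000007440, 0.93 ± 0.157, adjusted p = 2.23e-06). Lower were Pcdhb1 (-1.72 ± 0.467), Pcdhb6, and Pcdhga7 (-0.77 ± 0.0895), whose PFC libraries ran from 8.47 to 10.4 CPM and whose dStri libraries ran from 20.8 to 31.4.

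BLA had 16 members higher and 1 lower (17.5% and 10.1% of all genes), with 14 and 0 repeated (13.3% and 6.66%). The higher ones were 7 alpha, 7 gamma and 2 beta genes. Pcdha7 (0.71 ± 0.144) and Pcdha9 (0.62 ± 0.127) led the alpha genes, and Pcdha9 libraries ran from 5.02 to 8.72 CPM. In vHPC 10 members were higher and 9 lower (21.6% and 16% of all genes), and 6 and 7 repeated (15.4% and 11.4%). Pcdhga1 was higher there by 0.58 ± 0.127 (0.35 in S24), and Pcdhb5 by 0.43 ± 0.116, which did not repeat. The vHPC and BLA libraries differed widely in choroid plexus markers, whose sum reached 8967 CPM in 1 SS library of vHPC and 5989 in 1 of BLA. The part of such admixture was not tested. Shares of members near those of all genes, as in vHPC, are not a result about the members.

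**Figure D3:**
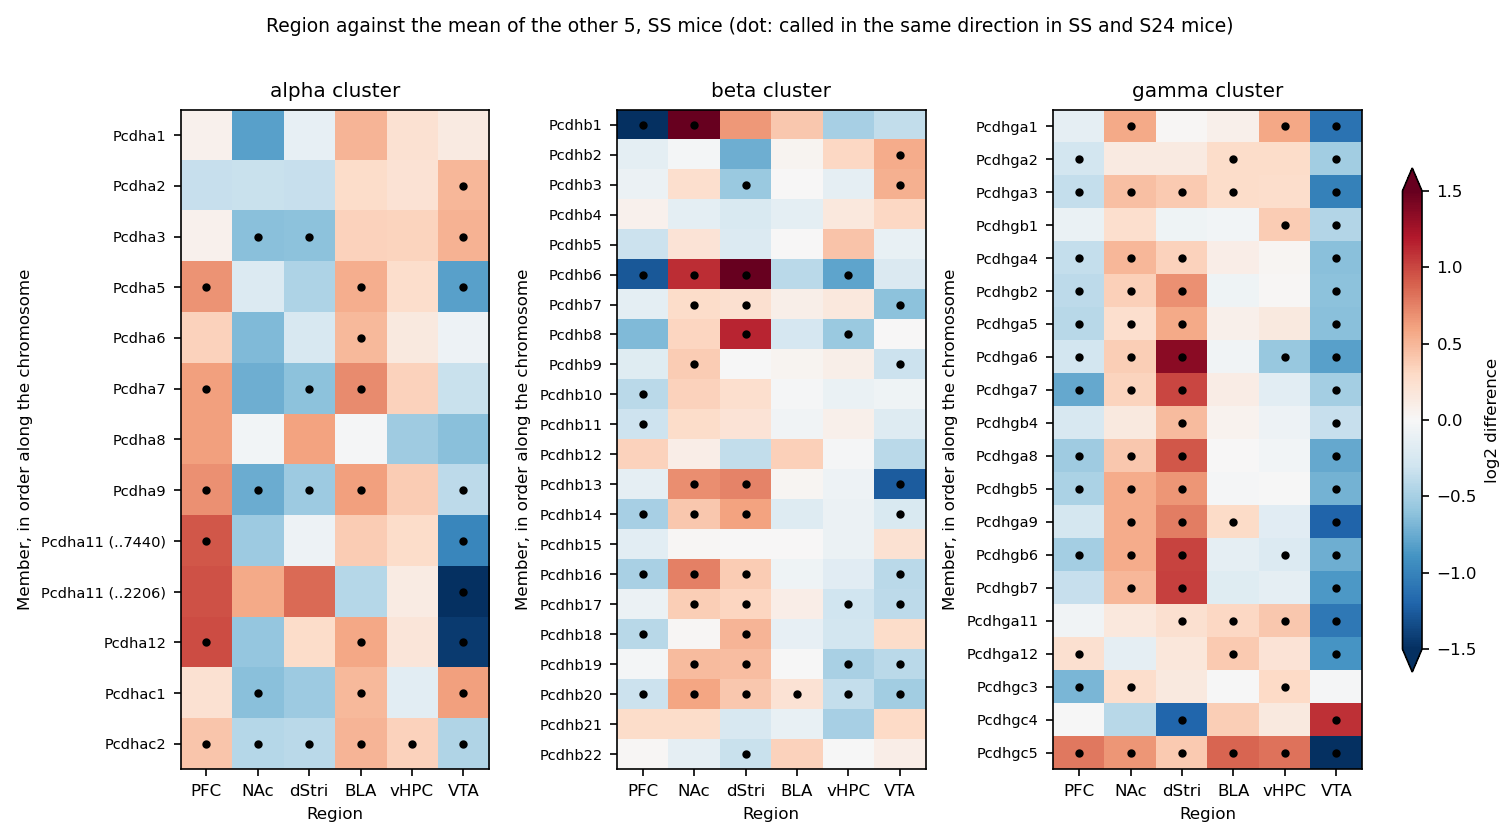
Colour gives the log2 difference of each member (rows, in chromosome order) between a region (columns) and the mean of the other 5 regions in SS mice, cut at -1.5 and 1.5, and a dot marks members called in the same direction in SS and S24 mice. The VTA column of gamma is blue with a dot for 18 of 20 genes, with Pcdhgc4 in red; red prevails in NAc and dStri for gamma and much of beta, and in PFC and BLA for alpha.

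The C-type genes went separate ways. Pcdhgc5, the last gene of the gamma cluster, had 6.43, 9.81 and 15.9 CPM in the 8 SS libraries of VTA (lowest, median, highest). In the other 5 regions the lowest library held 76.8 (dStri) and the highest 142.6 (PFC), so VTA did not overlap with any. It was lower in VTA by -3.53 ± 0.111 (log2 ± SE, adjusted p = 7.5e-32) and by -3.36 ± 0.209 in S24 mice. Among the other regions the means ran from 127.2 in BLA through 124.2 in vHPC, 121.3 in PFC and 114.9 in NAc to 97.5 in dStri. No neighbouring pair in that order passed the test, and only the step from dStri to VTA did (3.27 ± 0.120, adjusted p = 5.89e-29; 59.9% of all genes differed between that pair). Pcdhgc5 was also called higher in each of BLA (0.87), vHPC (0.82), PFC (0.79), NAc (0.66) and dStri (0.39), and all 5 calls hold the VTA value in their reference; they are part of the gamma counts above, also in dStri, where its level was second lowest.

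Of the S24 libraries of VTA, 7 held 5.67 to 10.4 CPM of Pcdhgc5 and that of mouse 37 held 39.9. Its excitatory neuron markers summed to 900.9 CPM, against 40.5 to 85.99 in the other 7. Without the libraries that stand apart the difference was -3.95 ± 0.116.

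Pcdhgc4, the neighbour of Pcdhgc5 and a gene needed for the survival of interneurons during development, was highest where Pcdhgc5 was lowest. Its VTA libraries had 21.3, 30.4 and 33.5 CPM (lowest, median, highest), and its dStri libraries 6.68, 7.80 and 9.75. VTA was higher by 1.09 ± 0.0958 (adjusted p = 2.12e-14; 1.17 in S24) and dStri lower by -1.19 ± 0.116 (adjusted p = 1.03e-12; -1.12 in S24). In the order VTA, BLA, vHPC, PFC, NAc, dStri, the steps from VTA to BLA (50.2% of all genes passed), from PFC to NAc (44%) and from NAc to dStri (13.9%) passed the test. BLA, vHPC and PFC, at means of 19.0, 16.9 and 15.2, did not differ between neighbours beyond their spread. In S24 mice BLA averaged 13.6, below NAc at 14.8, so the middle of this order was not the same. The 6 interneuron markers did not move as one between VTA and dStri. Gad1 and Gad2, which striatal projection neurons also express, averaged 333 and 337 CPM in VTA and 695.5 and 633 in dStri. Sst (30.5 and 130.4) and Lhx6 (0.550 and 26.1) also had the smaller mean in VTA, whereas Pvalb (108.4 and 5.43) and Vip (2.42 and 0.641) had the larger one there. The part of such cells in the Pcdhgc4 values was not tested.

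Pcdhac2, which serotonin axons need to spread evenly over their target areas, took 2 levels. The means were 49.7 CPM in BLA, 47.0 in PFC and 45.6 in vHPC, and 29.7 in dStri, 29.4 in NAc and 29.1 in VTA. The only step in the order to pass the test was that from vHPC to dStri (0.62 ± 0.0859, adjusted p = 1.93e-08; 47.9% of all genes passed). Libraries of the upper group ran from 38.5 to 60.3 and those of the lower group from 22.2 to 37.0, without overlap. In S24 mice they did overlap, since dStri mouse 46, at 40.45, lay above the lowest libraries of vHPC (37.05), BLA (39.1) and PFC (39.2). Pcdhac1 was sparse, from 2.33 ± 0.805 CPM in NAc to 4.80 ± 1.202 in VTA, where it was higher by 0.62 ± 0.162 (adjusted p = 0.000866; 0.37 in S24). No neighbours in its order differed. Pcdhgc3 was the most even C-type gene apart from PFC: its means ran from 26.2 in BLA to 31.5 in vHPC, and PFC was lower at 17.8 ± 2.30 (BLA to PFC 0.56 ± 0.120, adjusted p = 0.000324; 24.4% of all genes passed).

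**Figure D4:**
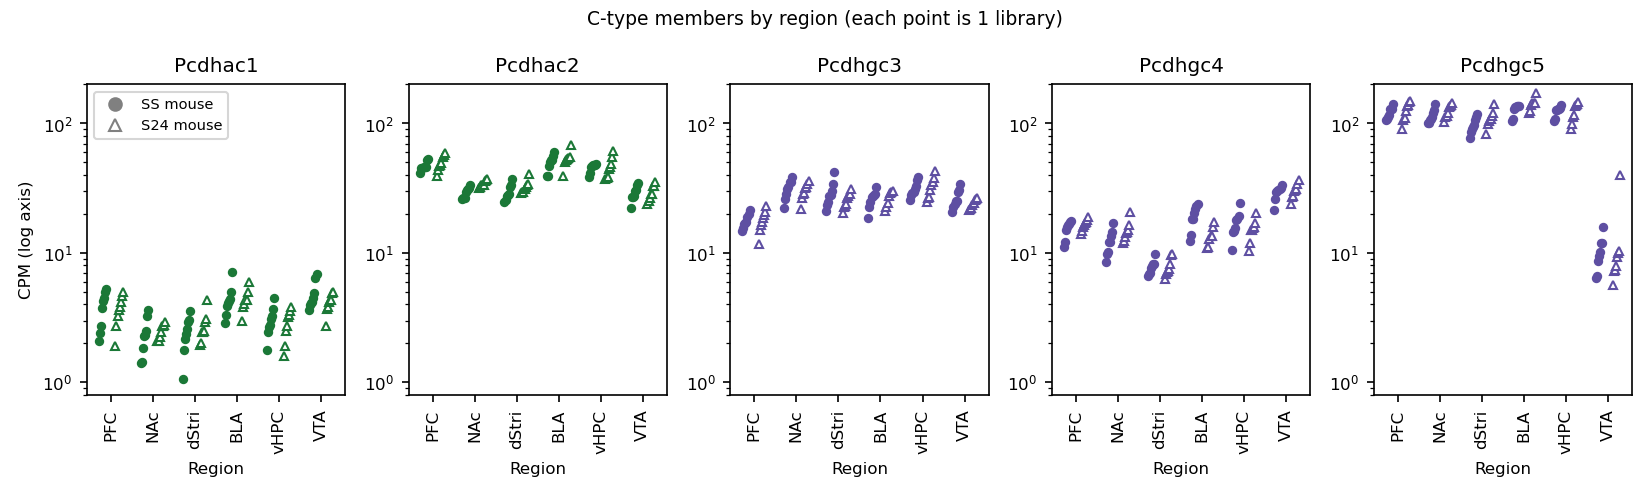
Each panel shows 1 C-type member, with CPM on a log axis and 1 point per library (filled circles SS, open triangles S24) in the 6 regions. Pcdhgc5 drops in VTA while Pcdhgc4 is highest there, Pcdhac2 is higher in PFC, BLA and vHPC than elsewhere, with overlap among the triangles, and the single high triangle for Pcdhgc5 in VTA is mouse 37.

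Genes that act with the clusters were read from 4 lists. Of 11 loop factors (CTCF, the cohesin subunits and their loaders and releasers), 8 were lower in VTA and 0 higher, all 8 repeated, with Ctcf at -0.39 ± 0.0488 and the cohesin loader Nipbl at -0.42 ± 0.0532. Their median was -0.36, against -0.04 for all genes, and 30.4% of all genes were lower there. In NAc 7 of 11 were higher (all genes: 20.6%) and 5 repeated, and in dStri 7 (24.2%), of which 6 repeated. Of 11 factors of DNA methylation and silencing, 8 were lower in VTA and 3 higher (all genes: 30.4% and 29.7%), among them Rest, the repressor of neuronal genes (0.83 ± 0.0837). The methyltransferase gene Dnmt3a was higher in dStri (0.48 ± 0.0498) and NAc (0.34 ± 0.0503), and lower in vHPC (-0.41 ± 0.0533) and VTA (-0.19 ± 0.0524).

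Of 16 binding partners and effectors, such as the kinases Ptk2b and Fyn and members of the WAVE complex, 11 were lower in VTA and 2 higher (all genes: 30.4% and 29.7%), led by the WAVE subunit gene Abi2 (-1.07 ± 0.0494). The delta protocadherins, which lie outside the clusters and have no shared constant exons, were read as the fourth list. Of 10 genes, 7 were higher in BLA and 0 lower (all genes: 17.5% and 10.1%), and 7 were lower in dStri and 0 higher (24.3% and 24.2%). In dStri Pcdh19, an X-linked delta protocadherin, was at -2.72 ± 0.108 and Pcdh8 at -2.06 ± 0.160. In vHPC 6 were higher and 1 lower in SS mice and 4 higher and 5 lower in S24 mice. Pcdh20 was at 3.32 ± 0.105 there, 3.67 in S24, but Pcdh17 (0.41 in SS and -0.28 in S24) and Pcdh7 (0.31 and -0.28) passed in opposite directions. No delta protocadherin tested in VTA was as low there as Pcdhgc5: Pcdh1 was lowest at -1.65 ± 0.0886.

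Within a region, members of a cluster had weak correlations from mouse to mouse. After subtracting each group's mean, the median Spearman correlation between pairs of alpha genes was 0.13 to 0.30 over the 50 or 51 libraries of the 6 regions, between beta genes 0.04 to 0.28 and between gamma genes 0.15 to 0.36. Between alpha and beta genes it was -0.01 to 0.05. It was 0.03 to 0.21 for alpha with gamma and 0.04 to 0.24 for beta with gamma. All of these ranges overlap with that within beta, and the last 2 also with those within alpha and gamma. In both PFC and VTA, pairs of beta genes had 0.04, below alpha with gamma at 0.14. Between all genes of at least 1 CPM the median correlation was 0 to 0.03. Members share library, tissue piece and depth, and these values are descriptions. The median SD between libraries, on the log2 scale, was 0.271 to 0.307 for alpha, 0.208 to 0.235 for beta and 0.205 to 0.251 for gamma. Genes of like level, 1 set per region for all clusters together, had 0.228 to 0.270. That set was not matched to each cluster, so it cannot show whether alpha varied more than its lower level gives.

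No member passed the test in any comparison of heroin and saline. The comparisons were H24 with S24, SH, HS and HH each with SS, the challenge (SH and HH with SS and HS), the history (HS and HH with SS and SH) and their interaction, in each of 6 regions. In these 42 tests, with 53 to 55 members and 17955 to 19976 genes each, 0 of 2280 member tests had an adjusted p under 0.05 with edgeR's quasi-likelihood test. Of all genes tested, 0.235% passed in the PFC challenge, 0.015% in PFC for SH, 0.00506% in NAc for SH and for the challenge, 0.00513% in the dStri challenge, and 0% in the others. An unadjusted p under 0.05 was found in 4.91% of member tests, against 4.25% for all genes. DESeq2 called 0 as well, with an unadjusted p under 0.05 in 5.57% of its member tests. Leaving interactions aside, 99.1% of 1954 member differences were under 0.5 on the log2 scale, with a median SE of 0.127 to 0.134 for comparisons with 1 reference group. In simulated counts for PFC, 200 genes drawn at random from all those tested were changed by 1 log2 unit. Of these, 72% were recovered in both the H24 and the SH comparison. The drawn genes were not chosen to be like the members, so this share does not give the detection of members. Small changes of single members may still not be detectable here. The comparisons of SH, HS and HH share the SS mice.

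The smallest adjusted p belonged to Pcdhac2 in NAc at 24 h. S24 libraries had 31.9, 33.5 and 37.0 CPM (lowest, median, highest) and H24 libraries 23.9, 29.8 and 35.0, so the groups overlapped, with 10 of 11 H24 libraries under the S24 mean. The difference was -0.23 ± 0.0598 (log2 ± SE, adjusted p = 0.247). In dStri it was -0.21 ± 0.0683 (adjusted p = 0.797), again with 10 of 11 libraries lower, and in the other 4 regions -0.09 to -0.01. Pcdha12 in NAc was at -0.47 ± 0.138 (adjusted p = 0.339), from 3.73 to 2.72 CPM, with 11 of 11 libraries under the S24 mean.

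In vHPC more members than the background reached an unadjusted p under 0.05. For HH against SS these were 11 of 54 (20.4%, against 9.34% of all genes), and for history 12 of 54 (22.2%, against 7.83%). All of them were lower in HH, or in the mice with a history of heroin. Of the 54 members, 45 had a negative difference in each (all genes: 46.3% and 46.5%), with medians of -0.16 and -0.09. For history this held for 20 of 20 gamma genes (median -0.11). Members of a cluster correlated between vHPC libraries (median Spearman 0.30 in alpha, 0.16 in beta and 0.27 in gamma), so they are not independent observations. The smallest adjusted p was 0.515 and 0.619. Pcdhga5 had 10.1, 12.8 and 13.7 CPM in SS, 7.68, 9.16 and 10.5 in HH, and lay between in SH and HS (medians 10.8 and 11.0). Its difference was -0.43 ± 0.111 (adjusted p = 0.515; 8 of 8 HH libraries under the SS mean), and -0.22 ± 0.0785 (adjusted p = 0.999) for the challenge. In the history comparison Pcdhga7 was at -0.34 ± 0.107 and Pcdhb16 at -0.25 ± 0.0804 (adjusted p = 0.619 for both).

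Other values moved with these vHPC groups. Of the 16 libraries that stood apart, 4 were 30 d libraries of vHPC (HH mice 18 and 21, SH mouse 27 and SS mouse 28). Without those that stand apart, 8 of 55 members (14.5%) reached an unadjusted p under 0.05 for history, against 4.35% of all genes. For HH against SS the number was also 8 of 55 (14.5%, against 6.42%), with 38 of 55 members negative. The heroin-taking mice also belonged mostly to 1 of 2 sets of sample codes. That set held 6 of 8 mice in both HS and HH, 3 of 8 in SS and 4 of 8 in SH. It was read from the BLA titles and carried to the other regions by mouse number, as the vHPC titles name no set. With that set as a covariate, 6 of 54 members reached an unadjusted p under 0.05 for history (11.1%, against 4.5%). Of the gamma genes 15 of 20 were then negative for history. For HH against SS the number was 7 of 54 (13%, against 6.09%), with 41 of 54 members negative. Summed oligodendrocyte markers had a median of 1953 CPM in SS and 3269 in HH, and choroid plexus markers reached 14770 CPM in 1 HH library. Their part in the lower values was not tested.

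The remaining named members are single genes in single regions. In PFC Pcdhb8 had 2.05, 2.95 and 3.58 CPM in SS and 3.32, 4.43 and 5.36 in HH, with 8 of 8 HH libraries above the SS mean and 0.58 ± 0.159 between them (adjusted p = 0.617). In dStri Pcdha5 was at 0.55 ± 0.169 for HS (adjusted p = 1), Pcdhb2 at 0.50 ± 0.175 for SH (0.636) and -0.78 ± 0.247 for the interaction (1), and Pcdhgb4 at -0.27 ± 0.0861 for the challenge (0.485). Pcdhga3 in NAc was at -0.24 ± 0.0814 for HS (adjusted p = 1), with 8 of 8 libraries below the SS mean. In VTA Pcdhgc3 was at -0.29 ± 0.107 for SH (0.900) and 0.43 ± 0.154 for the interaction (0.854). None of these passed the test. Group means of the cluster sums differed by a factor of 1.04 to 1.18 between the highest and the lowest of the 6 groups within a region, the largest being alpha in vHPC (81.1 in SS and 68.9 in HH). None of the 4 lists of loop, silencing, partner and delta protocadherin genes had a called gene either.

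**Figure D5:**
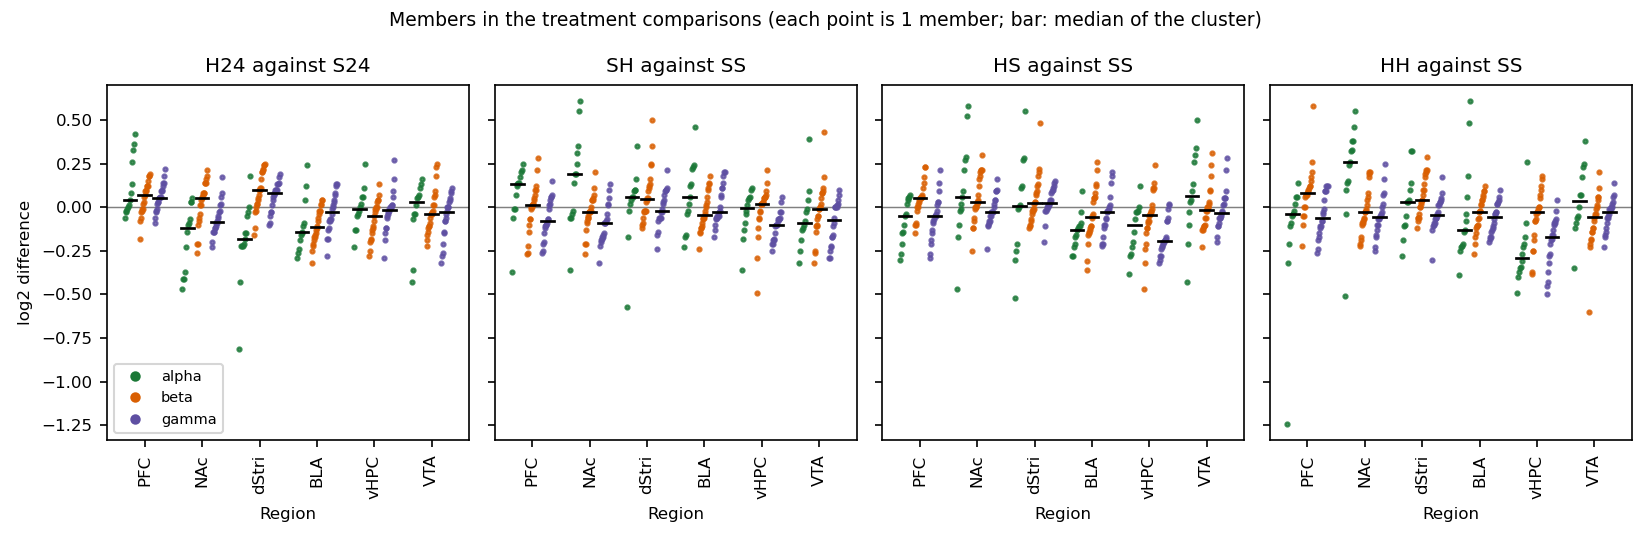
Each point is the log2 difference of 1 member in 1 region for the 4 comparisons with a saline group, coloured by cluster, with black bars at the cluster medians. Nearly all points lie within 0.5 of 0; in vHPC the HH points of all clusters lie mostly below 0, and the single point at -1.24 is Pcdha11 (ENSMUSG00000102206), a gene with 0 counts in 33 libraries.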

How the data were processed

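The authors deposited whole-number read counts per Ensembl gene and library, which were used as deposited. The submitters' processing notes name build mm10 and the tools HISAT2, HTSeq, FastQC and SAMtools. Per the labels, the TruSeq Gold kit keeps strand. The strand setting of the counting and the annotation are not given in the sources used here. A total of 0 value columns lacked a sample. Deposited CPM tables and gene lists were left aside.

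Counts were fitted in R 4.3.3 with edgeR 4.0.16 (filter at a minimum count of 10, TMM factors, quasi-likelihood test), per region and separately for the 24 h and 30 d mice, and per mouse group across the 6 regions. P-values were adjusted over all genes tested, with a threshold of 0.05. Log2 differences are those of edgeR's fit with its default prior count. Each SE is the size of that difference divided by the square root of the test's F value, and is not given by the fit itself. Log2 levels of single libraries were taken from CPM plus 1. Libraries under 5 M counts were left out. A library stood apart when its rank correlation with its region was lower than typical by over 4 scaled median absolute deviations, or when it was nearest to another region. Exon bases come from GENCODE M21 (GRCm38). Levels per kilobase were also computed over all exon bases and over bases free on both strands. DESeq2 1.42.0 was an alternative. Treatment groups hold different mice, so nothing pairs them. Regions of 1 mouse share its number, and deviations of the same mouse in different regions had a median correlation of 0.02 (SS) and 0.03 (S24), against -0.01 and 0 for different mice.

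In simulated counts with 200 genes changed by 1 log2 unit, 72% were recovered for H24 against S24 in PFC (18340 genes), 72% for SH against SS in PFC (19976 genes) and 70% for VTA against the other 5 regions (21088 genes).

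Named members are the C-type genes, per cluster the 2 highest and 2 lowest per kilobase, per region contrast up to 3 called per direction with the largest difference, and per treatment contrast the 2 with the smallest p. Genes of the 4 other lists were taken from those called with the smallest p, up to 4 per list and contrast. Pcdhac2 in dStri, Pcdhb16 and other genes given only for their range, and the list of members that repeated nowhere, were chosen after their values were seen. Members and lists were chosen with earlier results of these data known.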

Additional observations from a re-analysis of the deposited data

Results flagged for a closer look

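The cluster sums in every group of 4 to 10 libraries, and the 5 C-type genes in SS and S24 mice, were searched. Of these 150 groups, 4 had 1 library far from the others. Chance gives about 1 in 20 such groups, a larger share than was found. The alpha sum of vHPC HS mouse 14 was 111.99 CPM, against 59.1 to 82.3 in the other 7. Its meningeal fibroblast markers summed to 323 CPM (42.6 to 213.8 in the others) and its choroid plexus markers to 9.69 (50.3 to 7596). The beta sum of vHPC SH mouse 24 was 188.6 CPM, against 157 to 170.4. Its astrocyte markers summed to 6241 CPM (4204 to 5736) and its meningeal markers to 467 (67.8 to 356). Pcdhac2 in dStri S24 mouse 46 was at 40.45 CPM, against 28.8 to 33.8. Its excitatory neuron markers summed to 1220 CPM (427 to 834) and its astrocyte markers to 4435 (2618 to 3412). Pcdhgc5 in VTA S24 mouse 37 was at 39.9 CPM, against 5.67 to 10.4. That library held 900.9 CPM of excitatory neuron markers (40.5 to 85.99), 158 of meningeal markers (41.1 to 52.2) and 10250 of oligodendrocyte markers (14670 to 16450). The part of these markers was not tested. Without that library Pcdhgc5 averaged 8.28 ± 1.70 CPM (SD, n = 7).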

How the results depend on the processing

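The counts of members called between regions were recomputed under the alternatives (DESeq2 size factors, DESeq2, no filter on low counts, without libraries that stand apart, mouse as a replicate block, both groups of mice in 1 fit), and all but 3 stayed within 1.5 times. The exceptions concern members lower in BLA: in SS mice 1 became 2 without libraries that stand apart and 3 with SS and S24 mice in 1 fit, and in S24 mice 2 became 1 with no filter on low counts. The causes were not tested. All recomputed log2 differences of named members between regions kept their direction and their side of the threshold. With the mouse number as a replicate block, members higher and lower in SS mice numbered 12 and 25 in PFC, 28 and 10 in NAc, 26 and 10 in dStri, 16 and 1 in BLA, 10 and 10 in vHPC, and 9 and 34 in VTA, and the block changed no other count by over 1.5 times. In the treatment comparisons each alternative called 0 members, with the smallest adjusted p between 0.123 (DESeq2) and 0.395 (set of sample codes as a covariate) and an unadjusted p under 0.05 in 4.81% to 5.57% of member tests. Alpha in NAc (60.02 CPM) and beta in vHPC (183 CPM) moved by over 1 SD in S24 mice. At medians of 13 counts and below, Pcdhb1, Pcdha4 and Pcdha11 (ENSMUSG00000102206) rest on few counts. Little of the latter 2 could be counted: Pcdha4 has 8.56% own bases, and Pcdha11 (ENSMUSG00000102206) has 16.8% of its bases free on both strands. The part of depth was not tested.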
